A study of Mus musculus with 111 samples.

Results

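Small RNA of mature mouse sperm from the cauda epididymis was compared between 2 unusual diets, a high-fat diet and a low-protein diet. The libraries were those whose count columns carry the cauda sperm code with a high-fat or a low-protein prefix, 4 and 5 of them, or 9 of the 111 libraries in the study. Animals ate their diet for 6 months. The high-fat diet drew 60% of its calories from fat, and its label names 16% as the usual value. The low-protein diet held 10% protein, with sucrose making up the mass, where its control held 18%. The high-fat diet has a control of its own with 7.2% of calories from fat, so each of the 2 diets compared here was set against a control of its own. Sperm of the 2 control diets (5 libraries each) entered the same fit, so they shaped its scaling, filter and estimate of spread, and served to place the difference. Cauda epididymis tissue of the high-fat and low-protein diets (4 libraries each) was used only to place it. Cauda tissue of the control diets entered only the fit with tissue. Mice were housed in groups of up to 5. The labels name no strain and do not tie each library to its own animal, so the p-values rest on the spread among libraries, which may be technical in part.

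Mitochondria carry their own genome, which is read from both strands into long transcripts. The tRNAs lie between the other genes on these transcripts, and their excision releases the ribosomal and messenger RNAs around them. Mature sperm keep mitochondria in the midpiece of the tail. They have little cytoplasm, and their small RNA is known for fragments of cytosolic tRNAs, part of which they gain in the epididymis. OTTR-seq was used, a method in which the enzyme that copies RNA into cDNA also attaches the adapters, and cDNA was selected by size on a gel. The deposited table counts reads per named small RNA and gives no read lengths. Any fragments of a tRNA that were counted would fall under the name of the intact tRNA.

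The called differences were nearly all in tRNAs. Of 180 small RNAs with enough reads to test, 11 were called at an adjusted p under 0.05, which is 6.11% of those tested. In high-fat sperm 10 were lower (5.56%) and 1 was higher (0.556%). At an unadjusted p under 0.05 there were 33. The 10 were 7 mitochondrial tRNAs and 3 cytosolic serine tRNAs. The 1 higher was Snord55, a small nucleolar RNA. The 7 mitochondrial tRNAs are shown as the gene sequence from GENCODE M21 (build GRCm38, with T for U), 5′ to 3′ along the tRNA, to show which tRNAs the result names. Capitals mark the anticodon.
mt-tRNA-Leu-TAG-1: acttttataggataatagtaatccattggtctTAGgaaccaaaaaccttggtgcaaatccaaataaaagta
mt-tRNA-Asp-GTC-1: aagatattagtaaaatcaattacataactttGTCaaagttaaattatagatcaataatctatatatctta
mt-tRNA-Ile-GAT-1: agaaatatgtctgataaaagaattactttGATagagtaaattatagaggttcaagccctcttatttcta
mt-tRNA-Thr-TGT-1: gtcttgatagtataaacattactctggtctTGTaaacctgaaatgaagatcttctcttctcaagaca
mt-tRNA-Cys-GCA-1: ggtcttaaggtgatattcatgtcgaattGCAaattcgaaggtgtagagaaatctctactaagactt
mt-tRNA-Leu-TAA-1: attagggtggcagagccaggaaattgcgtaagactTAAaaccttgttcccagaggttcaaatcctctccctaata
mt-tRNA-Asn-GTT-1: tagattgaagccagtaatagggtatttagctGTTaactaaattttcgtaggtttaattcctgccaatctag

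Both mitochondrial leucine tRNAs are among them, one for each leucine codon family. The first 4, with mt-tRNA-Leu-TAA-1, lie on the plus strand of the annotation, at chrM:11671-11741 (mt-tRNA-Leu-TAG-1), chrM:6942-7011 (mt-tRNA-Asp-GTC-1), chrM:3706-3774 (mt-tRNA-Ile-GAT-1), chrM:15289-15355 (mt-tRNA-Thr-TGT-1) and chrM:2676-2750 (mt-tRNA-Leu-TAA-1). The cysteine and asparagine tRNAs lie on the minus strand, at chrM:5192-5257 (mt-tRNA-Cys-GCA-1) and chrM:5089-5159 (mt-tRNA-Asn-GTT-1). Their GC content ran from 17.1% to 44%, and that of the 11 tested mitochondrial tRNAs that were not called from 22.1% to 44.9%. Sequences of the cytosolic tRNAs were not used here.

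Depth and library quality bear on every value below. Reads over the 1042 kept features ran from 20512 to 129723 in high-fat and from 11430 to 30306 in low-protein sperm, so the low-protein libraries were shallower. Low-protein replicate 3 stood apart: cytosolic tRNAs took 68.4% of its reads, against 7.69% to 40.6% in the other 4 low-protein libraries, and 5S ribosomal RNA took 0.342%. Without it 2 features were called, mt-tRNA-Leu-TAG-1 and mt-tRNA-Leu-TAA-1. The number of calls was also 1 without high-fat replicate 1 or without high-fat replicate 2, and 6 without high-fat replicate 3, 7 without low-protein replicate 4 and 18 without low-protein replicate 5. None of the 12 microRNA hairpins that mark epididymal epithelium, blood or muscle is among the entries, so the sperm label could not be checked with them. A summed level of 3 RNAs that earlier results of these data tied to cauda tissue (Gm22220, Gm24245 and Gm26461) was 23150 to 47521 RPM (reads scaled to 1000000 per library) in high-fat and 2196 to 25722 in low-protein sperm. Of these, Gm26461 was 1.64 higher on the log2 scale, with an unadjusted p of 0.027, and its part in the results was not tested. In cauda tissue of the 2 diets the sum ran from 3139 to 162178 RPM. There Gm24245 was called lower in high-fat animals (-6.21 ± 1.54, adjusted p = 0.0279, edgeR). Gm26461 (-1.71 ± 0.76) and Gm22220 (-1.17 ± 0.68) were not called there. In column names, the number after an S runs from 34 to 38 for the low-protein and from 44 to 47 for the high-fat libraries, and its meaning is not given. Diet and that order cannot be told apart, nor can fewer cells of a type and less RNA per cell.

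Reads of all 22 mitochondrial tRNAs together made up 5.75%, 4.69%, 3.88% and 4.35% of the 4 high-fat libraries. In the 5 low-protein libraries they made up 6.95%, 19.3%, 20.8%, 16.2% and 8.18%. Over the kept features, every high-fat library was below every low-protein library. That order rests on the dropping of entries. With each of these tRNAs counted under 1 name, low-protein replicate 1 had 794 such reads of 129114 over all entries. High-fat replicate 2 had 961 of 123775, so the groups overlap on that total. The means over the kept features were 4.67% ± 0.797 (SD, n = 4) and 14.3% ± 6.37 (SD, n = 5). An exact two-sided permutation test over the libraries gave p = 0.0159, the smallest that 4 against 5 libraries allow, and 0.143 after Benjamini-Hochberg adjustment over 9 RNA classes. No class passed the adjusted threshold. In the 2 control groups the share ran from 4.64% to 15.1% (high-fat control) and from 7.16% to 32% (control), overlapping the low-protein libraries. Of the high-fat control libraries 2, at 4.64% and 5.67%, lay within the range of the high-fat libraries.

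**Figure D1:**
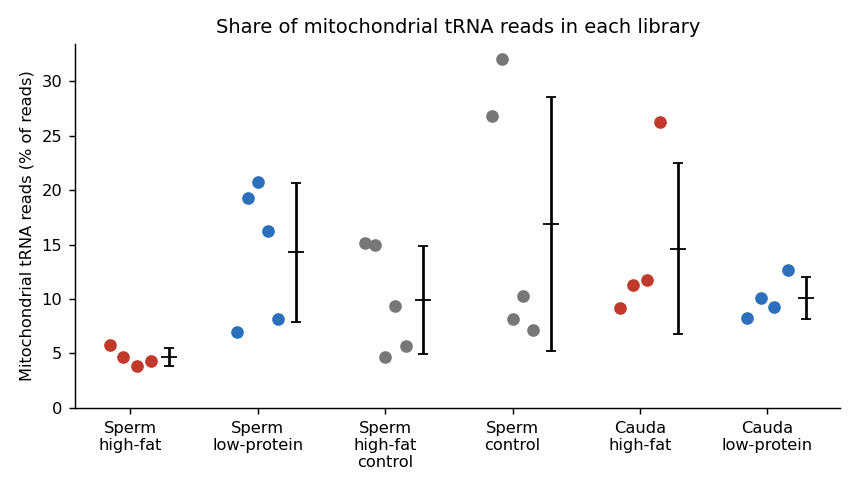
Percent of reads over the kept features that came from mitochondrial tRNAs in each library (points). Groups are sperm of 4 diets and cauda epididymis of 2, with the mean and SD beside each. The 4 high-fat sperm libraries sit between 3.88% and 5.75%, below all 5 low-protein sperm libraries.

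The ribosomal RNAs of the same genome overlapped between the diets. Mitochondrial rRNA took 4.69% to 8.13% of reads in high-fat and 0.691% to 10.4% in low-protein sperm, with an exact permutation p of 0.492 (adjusted p = 0.554). The small subunit RNA mt-Rnr1 differed by 0.67 ± 0.70 on the log2 scale (± SE), and the large subunit RNA mt-Rnr2 by 0.56 ± 0.71, and neither was called by edgeR (adjusted p = 0.494 and 0.572). Per mitochondrial rRNA read there were 0.868, 0.576, 0.638 and 0.928 mitochondrial tRNA reads in the high-fat libraries. In low-protein sperm the ratios were 1.07, 6.01, 30.1, 4.10 and 0.790, so 1 low-protein library fell among the high-fat ones. The exact permutation p of the log2 ratio was 0.0476, and 0.143 adjusted over 12 shares and ratios. As a share of all tRNA reads, mitochondrial tRNAs made up 24.2% to 36.1% in high-fat and 23.3% to 52.4% in low-protein sperm (exact permutation p = 0.317). With cytosolic tRNAs left out of the total over the kept features, the shares were 4.16% to 6.68% and 7.94% to 65.8%, without overlap (exact permutation p = 0.0159, adjusted p = 0.0952). The 65.8% was low-protein replicate 3, the next highest was 32.5%, and the difference in means went from -21.6 to -11.8 percentage points without that library. These 3 ratios were chosen after the data were seen.

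Of the 22 mitochondrial tRNAs 18 were tested, 7 were called lower and none higher, beside 6.11% of all features called. All 18 had a log2 fold change below 0, as had 78 of all 180 features. Their median was -1.75, against 0.31 for all features. With library totals in place of TMM factors the median of all features moved to -0.01 and that of the mitochondrial tRNAs to -2.22, and without low-protein replicate 3 to 0.06 and -1.64. For 8 of the 18 every high-fat library was below every low-protein library, where 7.22% of all features showed that order. The 12 tested from the plus strand had a median of -1.77 (5 called), and the 6 from the minus strand -1.62 (2 called). The 4 not tested had few reads in the 9 libraries: mt-tRNA-Ser-GCT-1 had 0 in high-fat and 1 in low-protein sperm, mt-tRNA-Ser-TGA-1 had 4 and 15, mt-tRNA-Tyr-GTA-1 had 3 and 15, and mt-tRNA-Trp-TCA-1 had 17 and 10.

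The leucine tRNA mt-tRNA-Leu-TAG-1 showed the widest difference. It was counted 0, 1, 0 and 1 times in the high-fat libraries, of 227642 reads in all. The low-protein libraries held 2, 22, 21, 6 and 13 reads of it, of 102128 in all. All high-fat libraries were lower, at 0 to 48.8 RPM against 175 to 1708 RPM. The pooled low-protein rate was 71.3 times the high-fat rate, with an exact 95% interval from 19 to 602 that covers counting error only. The fitted log2 difference was -4.96 ± 1.11 (adjusted p = 0.00557, edgeR). It stayed called in all 16 alternatives in which it was tested, with adjusted p from 4.4e-04 to 0.0356.

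The nearest tested tRNA on the same strand had a smaller difference. The histidine tRNA mt-tRNA-His-GTG-1 lies just upstream, with a serine tRNA between them that had too few reads to test, and was the most abundant mitochondrial tRNA, with 4091 reads in high-fat and 3884 in low-protein sperm. Its level ran from 10725 to 21947 RPM in high-fat and from 8749 to 60715 RPM in low-protein sperm, and the groups overlapped. Its log2 difference was -0.66 ± 0.69 (adjusted p = 0.494). Elsewhere in the genome, in the isoleucine, glutamine and methionine cluster, mt-tRNA-Ile-GAT-1 stood at -3.01 ± 0.84, mt-tRNA-Gln-TTG-1 at -1.18 ± 0.71 and mt-tRNA-Met-CAT-1 at -0.66 ± 0.68. Of the minus-strand cluster, the asparagine and cysteine tRNAs were called and mt-tRNA-Ala-TGC-1, at -1.26 ± 0.67, was not. Differences between tRNAs of a cluster were not tested.

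The isoleucine tRNA mt-tRNA-Ile-GAT-1 stood at 48.8, 48.8, 46.3 and 27.5 RPM in high-fat sperm and at 87.5, 596, 1220, 279 and 660 RPM in low-protein sperm. The groups did not overlap, but the counts were low, 10 reads against 59 (adjusted p = 0.0222). The aspartate tRNA mt-tRNA-Asp-GTC-1 stood at 122, 293, 177 and 275 RPM in high-fat and at 87.5, 1954, 13664, 1284 and 1386 RPM in low-protein sperm. Here 1 low-protein library was below all high-fat ones, and replicate 3 was far above the other 4 (-3.27 ± 0.85, adjusted p = 0.0222, and -2.15 with adjusted p = 0.116 without replicate 3).

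The threonine tRNA mt-tRNA-Thr-TGT-1 stood at 781, 1316, 331 and 989 RPM in high-fat and at 1487, 6293, 22285, 6031 and 1947 RPM in low-protein sperm, a log2 difference of -2.56 ± 0.74 (adjusted p = 0.0288). The cysteine tRNA mt-tRNA-Cys-GCA-1 stood at 707, 926, 362 and 796 RPM against 2450, 3743, 10980, 4132 and 2871 RPM (-2.29 ± 0.71, adjusted p = 0.0402). In both, all high-fat libraries were below all low-protein libraries. Both lost the call without replicate 3, at -1.99 for threonine (adjusted p = 0.116) and -2.03 for cysteine (adjusted p = 0.0927).

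The asparagine tRNA mt-tRNA-Asn-GTT-1 had, of the 11 called, the smallest spread relative to its mean in low-protein sperm. It stood at 1220, 1609, 1018 and 906 RPM in high-fat sperm and at 7524, 6393, 7401, 7762 and 4818 RPM in low-protein sperm. Means were 1188 ± 309 RPM (SD, n = 4) and 6780 ± 1215 RPM (SD, n = 5), and the groups were far apart (-2.18 ± 0.69, adjusted p = 0.0408). Without replicate 3 the difference was -2.25, with an adjusted p of 0.0627. The call of this tRNA held in only 1 of the 9 fits with a library left out. The second leucine tRNA, mt-tRNA-Leu-TAA-1, stood at 244, 195, 123 and 54.9 RPM in high-fat and at 875, 629, 163, 1173 and 1584 RPM in low-protein sperm (-2.27 ± 0.72, adjusted p = 0.0408). Replicate 3 was here the lowest low-protein library and fell among the high-fat ones. Without it the difference was -2.55 and the call held (adjusted p = 0.0162). Over all alternatives in which each was tested, the call held for mt-tRNA-Asp-GTC-1 in 13 of 16, mt-tRNA-Thr-TGT-1 in 11 of 16, mt-tRNA-Ile-GAT-1 in 11 of 15, mt-tRNA-Cys-GCA-1 in 9 of 16, and for mt-tRNA-Leu-TAA-1 and the asparagine tRNA in 7 of 16 each. None of them changed sign.

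**Figure D2:**
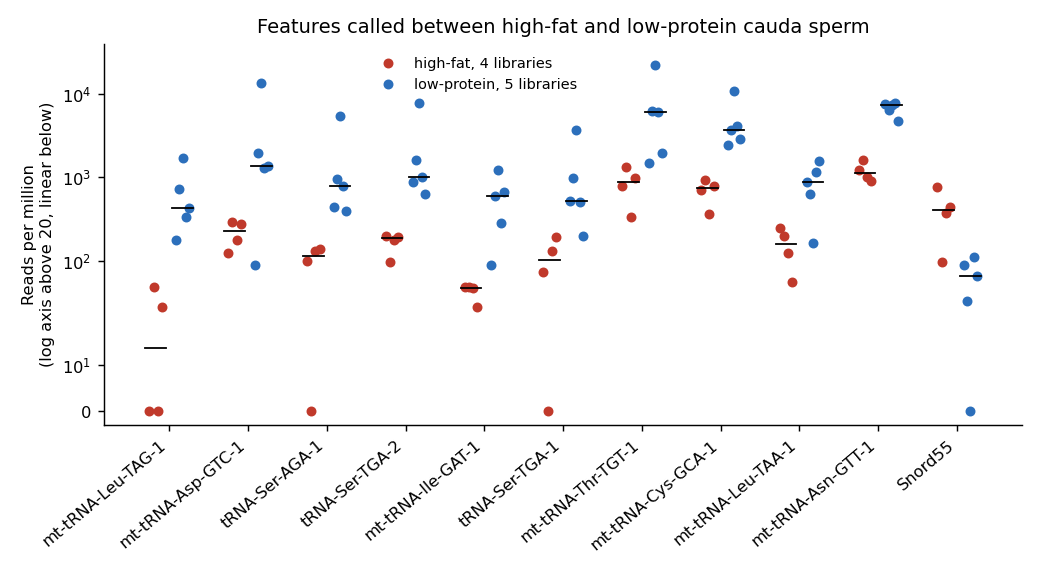
RPM of the 11 called features in each high-fat (4) and low-protein (5) sperm library, with the median as a line, on an axis that is logarithmic above 20 RPM and linear below. For 8 of the 10 features lower in high-fat sperm the groups do not overlap, and Snord55 is the 1 that is higher.

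Of the 11 tested mitochondrial tRNAs not called in the fit over sperm alone, mt-tRNA-Glu-TTC-1 came nearest. In the fit with cauda epididymis added, the same sperm difference was called lower for it (adjusted p = 0.0169, edgeR). There mt-tRNA-Phe-GAA-1 was called lower too (adjusted p = 0.0402, edgeR). The glutamate tRNA stood at 2854, 1853, 701 and 1401 RPM in high-fat and at 4024, 10898, 17243, 8544 and 4884 RPM in low-protein sperm, without overlap. In the fit over sperm alone its value was -1.96 ± 0.68 (adjusted p = 0.0712). The glycine tRNA mt-tRNA-Gly-TCC-1 and mt-tRNA-Gln-TTG-1 also did not overlap (-1.55 ± 0.70 and -1.18 ± 0.71, adjusted p = 0.191 and 0.340). The 4 most abundant tRNAs, that of histidine included, had the 4 smallest differences: mt-tRNA-Lys-TTT-1 stood at -0.67 ± 0.69, mt-tRNA-Met-CAT-1 at -0.66 ± 0.68 and mt-tRNA-Val-TAC-1 at -1.13 ± 0.71. Across the 18 tRNAs, log2 fold change and mean RPM were related with Spearman's rho = 0.62 (Pearson r = 0.64 with log10 RPM). With GC content rho was 0.42 and with length -0.29. These describe 18 tRNAs that share the same 9 libraries, and no test was made. The name mt-tRNA-Arg-TCG-1 (-1.47 ± 0.69) is uncertain, because its counts differ from those listed under the gene name mt-Tr.

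Reads of cytosolic tRNAs made up 6.87% to 13.8% of high-fat and 7.69% to 68.4% of low-protein libraries, with overlap. Of 213 cytosolic tRNA names 58 were tested, 3 were called lower and none higher, a share near the 6.11% of all features. Their median log2 fold change was -0.94, with 52 of 58 below 0. Scaling moved both: with total counts 10 were called and the median was -1.57, and with all table entries 9 were called and it was -2.11. None was called without low-protein replicate 3, high-fat replicate 1 or high-fat replicate 2, nor with no filter on low counts. The median without low-protein replicate 3 was -0.71, the value nearest 0 of all alternatives. All 3 were serine tRNAs, of the family that reads the serine codons beginning with UC.

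**Figure D3:**
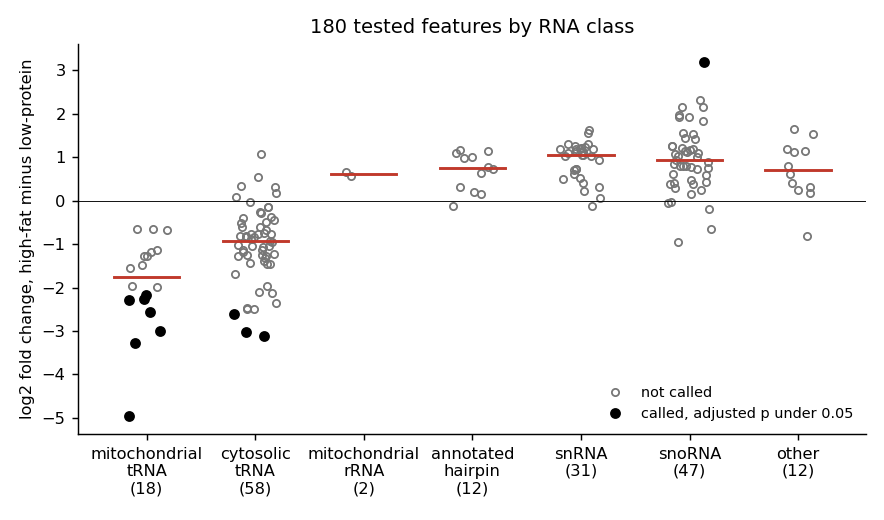
Log2 fold change of high-fat minus low-protein sperm for each of the 180 tested features by RNA class, with the number of features in brackets, called features filled and the class median as a red line. Medians are -1.75 for mitochondrial tRNAs, -0.94 for cytosolic tRNAs and 0.93 for snoRNAs.

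The serine tRNA tRNA-Ser-AGA-1 stood at 97.6, 0, 131 and 137 RPM in high-fat and at 437, 961, 5449, 782 and 396 RPM in low-protein sperm (-3.11 ± 0.83, adjusted p = 0.0222). The copy tRNA-Ser-TGA-2 stood at 195, 97.5, 177 and 192 RPM against 875, 1623, 7889, 1005 and 627 RPM (-3.02 ± 0.83, adjusted p = 0.0222). The groups did not overlap for either. The copy tRNA-Ser-TGA-1 stood at 73.2, 0, 131 and 192 RPM against 525, 994, 3741, 503 and 198 RPM (-2.61 ± 0.78, adjusted p = 0.0352), and its highest high-fat and lowest low-protein libraries almost met. Reads were few, from 26 to 40 per tRNA over the high-fat libraries, and copies are near-identical, so that reads may be divided between them. Replicate 3 was the highest library in all 3, and without it their log2 differences were -2.26, -2.25 and -1.95, with adjusted p of 0.0927, 0.0927 and 0.145. All 6 tested serine tRNAs had a value below 0 (median -2.02), and all 14 together made up 0.109% to 0.154% of high-fat and 0.214% to 2.75% of low-protein reads, without overlap. In the fit with cauda epididymis added, tRNA-Ser-GCT-4 was also called lower for the sperm difference (-3.71 ± 1.05, adjusted p = 0.0146, edgeR).

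Summing copies by anticodon gave the same picture with 1 addition. Of 38 anticodons 3 were called, all lower (7.89%): tRNA-Ser-AGA (-2.84 ± 0.82, adjusted p = 0.0145), tRNA-Ser-TGA (-2.86 ± 0.83, adjusted p = 0.0145) and tRNA-Val-TAC (-2.47 ± 0.82, adjusted p = 0.0495). Without low-protein replicate 3 none was called. The valine anticodon tRNA-Val-TAC stood at 317, 293, 108 and 467 RPM in high-fat and at 175, 2915, 10411, 726 and 231 RPM in low-protein sperm, so the groups overlapped. The other valine anticodons, tRNA-Val-AAC (-2.34 ± 0.79) and tRNA-Val-CAC (-2.09 ± 0.78), had adjusted p of 0.0523 and 0.0738. Single valine copies were not called in the fit over sperm alone: tRNA-Val-AAC-1, tRNA-Val-AAC-5 and tRNA-Val-CAC-2 had log2 differences of -2.35, -2.48 and -2.12. Without low-protein replicate 3 these were -1.34, -1.42 and -1.14. Of 5 tested valine copies 4 were called lower with total counts, 4 with all table entries, 3 with a replicate block and 2 with DESeq2. Without low-protein replicate 3, 0 were called.

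The tRNAs whose fragments are abundant in sperm did not pass the test in the fit over sperm alone. This list holds 10 anticodons, among them glycine GCC and glutamate CTC, whose 5′ fragments are the best known in sperm. Of its 67 names 18 were tested and none was called in either direction, with a median of -1.16 and 5 at an unadjusted p under 0.05, all lower. With cauda epididymis added to the fit, tRNA-Val-AAC-1, tRNA-Val-AAC-5, tRNA-Val-CAC-2 and tRNA-Gly-GCC-1 were called lower for the same sperm difference. Their adjusted p ran from 0.0234 to 0.0440 (edgeR). Together the tRNAs of the list made up 4.35% to 10.8% of high-fat and 4.27% to 48.5% of low-protein reads. Whether those reads came from fragments is not known. The copy tRNA-Gly-GCC-2, the most abundant glycine tRNA, stood at -1.18 ± 0.73 (adjusted p = 0.340), and tRNA-Gly-GCC-1 at -2.10 ± 0.81 (adjusted p = 0.104). The glutamate tRNA tRNA-Glu-CTC-1 had the highest value of any cytosolic tRNA, 1.07 ± 0.66 (adjusted p = 0.340). It ran from 2166 to 9246 RPM in high-fat and from 976 to 4637 RPM in low-protein sperm. The lysine tRNA tRNA-Lys-CTT-3, at 7995 to 26912 RPM and 6368 to 52269 RPM, stood at 0.08 ± 0.70, and its sign changes with the scaling.

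Groups of tRNAs by the kind of amino acid gave no calls in the fit over sperm alone. Of 73 tRNA names for essential amino acids 21 were tested, with a median of -0.93 and none called. The branched-chain group (isoleucine, leucine and valine) had 16 tested of 32, all below 0, with a median of -1.08. The tRNAs that carry queuosine in the anticodon had 4 tested of 20, with a median of -1.08: tRNA-Asn-GTT-3 at -1.68 ± 0.77, tRNA-His-GTG-2 at -1.28 ± 0.80 and tRNA-Asp-GTC-1 at -0.60 ± 0.72 were not called.

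Most other small RNAs had values above 0, with 1 call in the fit over sperm alone. Of 231 small nucleolar RNAs (snoRNAs, which guide modification of ribosomal and other RNA) 47 were tested, 1 was called higher and none lower. Their median was 0.93, with 42 of 47 above 0 and 10 at an unadjusted p under 0.05, all higher. With library totals the median was 0.59, and without low-protein replicate 3 it was 0.62. For 4 snoRNAs every high-fat library was above every low-protein library, where 2.22% of all features, these 4, showed that order. They were Snord15b, Snord49b, Snord57 and Gm23969, and their adjusted p ran from 0.0857 to 0.208. These were named after their values were seen. In the fit with cauda epididymis added, Snord15b (2.07 ± 0.69) and Snord49a (2.34 ± 0.77) were also called higher for the sperm difference (adjusted p = 0.0402 for both, edgeR).

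Snord55 is a box C/D snoRNA, a class that guides ribose methylation of ribosomal RNA. It stood at 756, 97.5, 370 and 439 RPM in high-fat sperm and at 87.5, 33.1, 0, 112 and 66 RPM in low-protein sperm. The groups overlapped by 1 library, and the reads were 97 against 6. The log2 difference was 3.20 ± 1.00 (adjusted p = 0.0402). It held the call in 6 of 16 alternatives, and without low-protein replicate 3 the difference was 2.85, with an adjusted p of 0.116.

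Of 93 small nuclear RNAs, the core of the spliceosome, 31 were tested and none was called, with a median of 1.05. Gm24565 (1.62 ± 0.91), Gm24497 (1.26 ± 0.71) and Gm23971 (0.74 ± 0.65), all annotated as small nuclear RNAs, had adjusted p from 0.336 to 0.429. Of 27 annotated hairpins 12 were tested, with a median of 0.75 and none called. The abundant hairpins Gm24187 (1.17 ± 0.73) and Gm24270 (1.14 ± 0.73) may list the same reads. Among RNA polymerase III products, Rn7s1, an RNA of the signal recognition particle, stood at 1.20 ± 0.73, and Rn7sk, which holds back a transcription elongation factor, at 1.11 ± 0.70. The 5S ribosomal RNA, entered under Gm25018, stood at 0.62 ± 0.76. None of these 3 was called (adjusted p = 0.340, 0.340 and 0.556). No piRNA precursor of 276 had enough reads to test, and they made up 0.530% to 0.671% and 0.342% to 1.06% of reads.

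Each diet has its own control, so the 2 control diets were compared in the same fit. In high-fat control minus control sperm 0 of 180 features were called (0%), with 21 at an unadjusted p under 0.05 and 0 calls by DESeq2. Yet the mitochondrial tRNAs had a median of -1.22 there, against 0.18 for all features. Of the 7 called mitochondrial tRNAs, the control difference was -1.68 ± 0.77 for mt-tRNA-Leu-TAG-1 and -1.54 ± 0.62 for mt-tRNA-Asn-GTT-1. It was -1.41 ± 0.72 for mt-tRNA-Asp-GTC-1, -1.30 ± 0.63 for mt-tRNA-Cys-GCA-1 and -1.22 ± 0.65 for mt-tRNA-Thr-TGT-1. It was -0.64 ± 0.68 for mt-tRNA-Ile-GAT-1 and -0.32 ± 0.62 for mt-tRNA-Leu-TAA-1. Their adjusted p ran from 0.299 to 0.767. The control groups share no library with the 9, so these values are separate measurements.

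Each diet against its own control gave no calls. In high-fat minus high-fat control 0 of 180 were called (0%), with 6 at an unadjusted p under 0.05 and 0 calls by DESeq2, and in low-protein minus control 0 of 180 were called (0%), with 0 at an unadjusted p under 0.05 and 0 by DESeq2. The mitochondrial tRNA medians were -0.89 and -0.22. The test of whether these 2 diet effects differ, which takes out the difference between the control diets, called 0 of 180 (0%), with 8 at an unadjusted p under 0.05 and 0 calls by DESeq2. In it mt-tRNA-Leu-TAG-1 stood at -3.28 ± 1.34, Snord55 at 3.31 ± 1.29, tRNA-Ser-AGA-1 at -2.65 ± 1.05 and mt-tRNA-Asn-GTT-1 at -0.64 ± 0.89, and the smallest adjusted p of all features was 0.812. In these libraries the high-fat against low-protein difference and a difference already present between the control diets cannot be told apart.

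**Figure D4:**
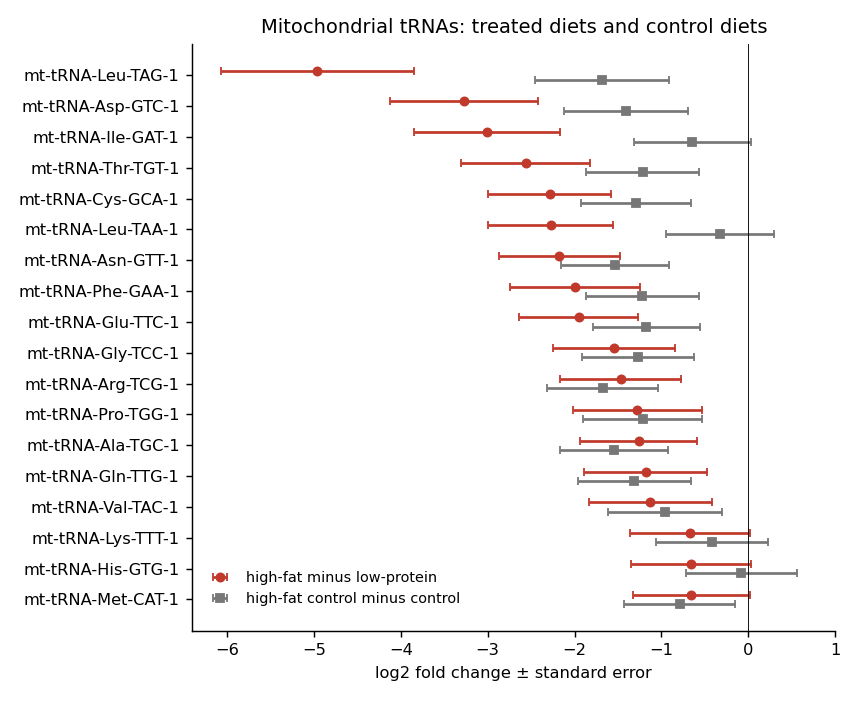
Log2 fold change ± SE of each of the 18 tested mitochondrial tRNAs between the 2 treated diets (red circles) and between the 2 control diets (grey squares), in sperm. All 18 lie below 0 in the first, and medians are -1.75 and -1.22.

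Sperm are stored in the cauda epididymis, so the same diet difference was tested against that of the tissue. In cauda tissue 3 of 241 features (1.24%) were called, all lower and none among the 11. The difference between sperm and tissue was called for 36 of 241 (14.9%), 27 of them lower in sperm (11.2%) and 9 higher (3.73%). All of the 11 except mt-tRNA-Leu-TAA-1 (adjusted p = 0.0648) were among the 36, and nothing is read from that count because the sperm libraries that chose the 11 enter it. In tissue, mt-tRNA-Leu-TAG-1 stood at 754 to 3337 RPM in high-fat and at 1018 to 1374 RPM in low-protein animals, a difference of 0.21 ± 0.64. The tissue difference of the 18 mitochondrial tRNAs had a median of 0.34. The called serine tRNAs had values above 0 in tissue, with 1.70 ± 0.66 for tRNA-Ser-AGA-1 and 1.77 ± 0.66 for tRNA-Ser-TGA-2 (adjusted p = 0.164 for both). The difference of the differences was -4.81 ± 0.98 for tRNA-Ser-AGA-1 (adjusted p = 5.5e-04), -5.38 ± 1.21 for mt-tRNA-Leu-TAG-1 (adjusted p = 0.00153) and 3.59 ± 1.03 for Snord55 (adjusted p = 0.0147). Cauda high-fat replicate 4 stood apart, with 26.3% of reads from mitochondrial tRNAs against 9.15% to 11.8% in the other 3. It was the highest of its group for mt-tRNA-Leu-TAG-1, at 3337 RPM, and for tRNA-Ser-AGA-1, at 1450 RPM against 333 to 715. Without cauda high-fat replicate 4, 8 features were called, and without sperm low-protein replicate 3, 18.

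**Figure D5:**
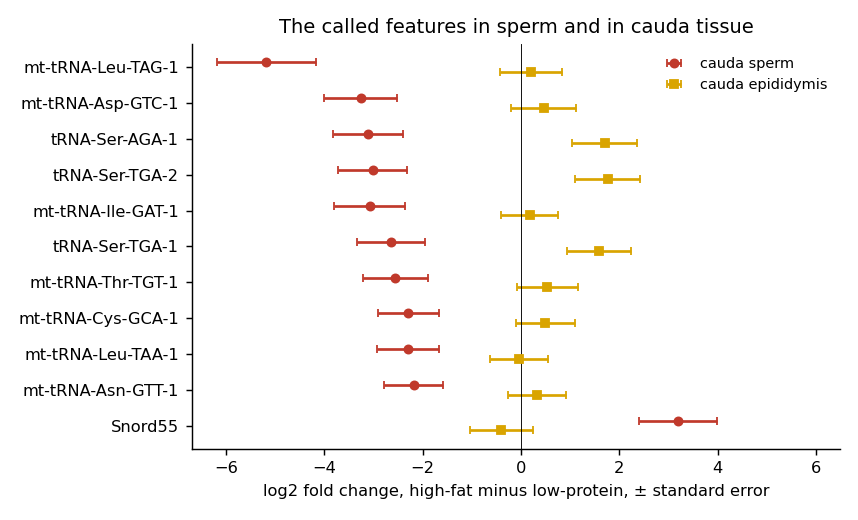
Log2 fold change ± SE of high-fat minus low-protein for the 11 called features, in cauda sperm (red circles) and in cauda epididymis (yellow squares), from 1 fit over both. In tissue mt-tRNA-Leu-TAG-1 lies at 0.21 and tRNA-Ser-AGA-1 at 1.70, where the sperm values are -5.18 and -3.11.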

How the data were processed

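The authors deposited raw read counts, 1 per library, for 1268 named small RNAs in 111 libraries. The submitters' processing notes name cutadapt, DESeq2 and mm10. Versions and roles, aligner, counting rule and the column code gt65 are not given in sources used here. Strand use is not stated.

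Groups and replicate numbers came from the titles. Second names of mitochondrial tRNAs and all but 1 of the 5S entries were dropped by name, without comparing counts. Other entries of at least 50 reads were dropped where their counts differed by under 5% from those of a kept entry. The step was chosen with the duplicates known and left 1042 features with 51.1% of counts over all 111 libraries. The kept part differed between the sperm libraries compared here. It was 11430 of 129114 reads in low-protein replicate 1 and 12295 of 17579 in low-protein replicate 3. In high-fat replicate 3 it was 129723 of 850603. Shares and RPM are of the kept part, so they depend on this step. Overlapping entries that differed by more were kept, so shares of reads may still count some reads more than once. Copies of cytosolic tRNAs are near-identical, so their single values are uncertain. The test was edgeR 4.0.16, run in R 4.3.3 (TMM, filterByExpr, robust quasi-likelihood F test, Benjamini-Hochberg adjustment over all tested features, threshold 0.05), in 1 fit over the 19 sperm libraries. A fit with cauda epididymis of all 4 diets added gave the comparison with tissue. Standard errors derive from the F statistic. RPM scale a library's kept features to 1000000 reads. Class shares were tested by exact permutation of 126 splits. The sperm fit was checked on simulated counts for the high-fat minus low-protein and the control comparison. The permutation test was checked on made-up values with a known answer. The other comparisons, the sums per anticodon and DESeq2 were not checked this way.

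Named features were every called one, the 5 most abundant, and in each list with at least 3 tested members the 2 with the smallest p and the most abundant. Lists and members were chosen with earlier results of these data known. Numbers shared by replicates of the 2 diets did not pair them. Alternatives were other scalings, DESeq2 1.42.0, no filter, all entries, fewer libraries, a replicate block and each library left out.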

Additional observations from a re-analysis of the deposited data

Results flagged for a closer look

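In 50 sets of replicates a library far from the rest of its group was looked for, and 8 had one. The sets were class shares and the called or most abundant features in each diet. The limit used flags about 1 in 20 where values are normally spread. The sets share the same 9 libraries and hold the features called in them, so the 8 cannot be set against that rate. In 6 of the 8 the library that stood apart was low-protein replicate 3, as the highest. It stood at 13664 RPM for mt-tRNA-Asp-GTC-1 (others 87.5 to 1954), 22285 for mt-tRNA-Thr-TGT-1 (others 1487 to 6293) and 10980 for mt-tRNA-Cys-GCA-1 (others 2450 to 4132). It stood at 5449 for tRNA-Ser-AGA-1 (others 396 to 961), 7889 for tRNA-Ser-TGA-2 (others 627 to 1623) and 3741 for tRNA-Ser-TGA-1 (others 198 to 994). High-fat replicate 4 was the lowest for mt-tRNA-Ile-GAT-1, at 27.5 RPM (others 46.3 to 48.8), which is 1 read where the others had 2, 1 and 6, so the gap lies within counting error. High-fat replicate 2 was the highest for Gm47301, an annotated hairpin, at 113300 RPM (others 70843 to 73761).

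The diet difference in sperm minus that in cauda tissue passed edgeR's test for 12 of the 16 features examined (the 11 called and the 5 most abundant), and for 36 of all 241 (14.9%). Of the 12, 10 were chosen as called in the same sperm libraries, so their passing is fixed in part by that choice and nothing is read from it. It was -5.38 for mt-tRNA-Leu-TAG-1, -3.72 for mt-tRNA-Asp-GTC-1, -3.26 for mt-tRNA-Ile-GAT-1, -3.09 for mt-tRNA-Thr-TGT-1, -2.80 for mt-tRNA-Cys-GCA-1 and -2.51 for mt-tRNA-Asn-GTT-1. It was -4.81 for tRNA-Ser-AGA-1, -4.78 for tRNA-Ser-TGA-2 and -4.23 for tRNA-Ser-TGA-1. It was 3.59 for Snord55, 3.62 for Gm24270 and 3.33 for Gm24187 (adjusted p from 5.5e-04 to 0.0452, all on the log2 scale).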

How the results depend on the processing

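The 11 calls depended on the processing. There were 19 with total counts (all lower), 2 with no filter on low counts and 5 without mitochondrial tRNAs, and 9 with RLE factors (all lower) and 15 with DESeq2. A fit of only the 9 high-fat and low-protein libraries tested 130 of the 180 features and called 8 lower and 1 higher. With all table entries there were 31, but the same reads can then be called under 2 names. Of the 180 features, 19 were lower and 1 higher in that setting. The same limit holds for the count with all entries in sperm against cauda tissue. Leaving out 1 library at a time gave 1 to 18 calls: 1 without high-fat replicate 1 or 2, 6 without high-fat replicate 3, 2 without low-protein replicate 3, 7 without replicate 4 and 18 without replicate 5. The replicate block gave 26 calls, but the numbers only share a name: deviations of same-numbered libraries correlated at 0.12, -0.17, -0.39 and -0.02, and 1 of 4 high-fat libraries correlated best with its own number. For anticodons the 3 calls became 8 with total counts, 8 with all entries, 8 with the replicate block and 0 to 5 with a library left out. For sperm against cauda tissue the 36 calls became 13 with RLE factors, 61 with total counts, 59 without a filter, 91 with all entries and 8 to 50 with a library left out (10 and 11 without high-fat sperm replicates 1 and 3, 23 and 18 without low-protein sperm replicates 2 and 3, 23 and 8 without high-fat cauda replicates 2 and 4, 19 and 17 without low-protein cauda replicates 1 and 2). The cause of these moves was not tested.

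Over the alternatives the median of the mitochondrial tRNAs stayed between -2.67 and -1.53, that of all features between -0.08 and 0.45. The difference in mitochondrial tRNA share was -9.62 percentage points and ran from -11.5 to -8.00 with a library left out. With all entries, class differences turned to -0.00566 (mitochondrial rRNA), -1.71 (snRNA) and -0.145 (snoRNA) percentage points. That of piRNA precursors ran from -0.110 to 0.0695 with a library left out, and was 0.0313 as log2. Signs also turned for tRNA-Cys-GCA-2 (-0.34) and Gm23971 (-0.26) with all entries. For tRNA-Glu-TTC-2 the value was 0.0365 with RLE factors, 0.0367 with DESeq2, 0.0229 with the block and -0.75 to 0.21 with a library left out. For tRNA-Glu-TTC-1 it was 0.116 with RLE factors and DESeq2, and -0.71 to 0.126 with a library left out. For tRNA-Lys-CTT-3 it was -0.47 with total counts, -0.081 unfiltered, -0.79 with all entries, -0.14 with the block, -0.29 without mitochondrial tRNAs and -0.44 to 0.47 with a library left out.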
